A study of Mus musculus with 8 samples.

Results

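The data concern 6 noncoding RNAs of the mouse submandibular gland: Malat1, Neat1, Rn7sk, Gm42418, Mir99ahg and Meg3. They were taken by name from the 54838 genes counted in each library, and all 6 were found and passed the filter on low counts that left 19358 genes for testing. The RNAs had been picked from these same libraries for their read shares, and Mir99ahg also because it lies on the duplicated segment of the model, so their levels are given as a description. Their adjusted p-values show where they stand among all genes tested and are not independent support for the choice.

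The 8 RNA sequencing libraries were made from submandibular glands of males, with 4 libraries of wild-type C57BL/6J mice (WT) and 4 of Dp16 mice. Dp16 mice are a model of Down syndrome that carries a duplication of mouse chromosome 16 from Lipi to Zbtb21, so genes of that segment (chr16:75540514-97962622 on GRCm38) are present in 3 copies in place of 2, in every cell. The Dp16 libraries bear the same strain label and the genotype label Transgenic, and the sources used here do not give the age of the mice, whether WT mice were littermates or whether a library pools animals. Total RNA was depleted of ribosomal RNA and made into stranded libraries, which keep unspliced and non-polyadenylated transcripts. The labels do not say that replicates came from separate animals, so p-values measure the spread between these samples.

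These RNAs act without being translated. Malat1 is retained in nuclear speckles, bodies rich in splicing factors, and Neat1 is the scaffold of paraspeckles, which form beside speckles. Rn7sk, transcribed by RNA polymerase III, holds the elongation kinase P-TEFb inactive in a particle with Hexim, Larp7 and Mepce proteins. Mir99ahg is a long host transcript for the microRNAs miR-99a, let-7c and miR-125b. Meg3 is an imprinted transcript of the Dlk1-Dio3 locus, expressed from the maternal chromosome. Gm42418 is annotated as a long intergenic RNA but lies over a copy of the ribosomal RNA unit.

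The microRNAs encoded inside Mir99ahg are shown because their host is the RNA of the 6 that lies on the duplicated segment. The mature sequences are those of RefSeq on GRCm38.p6, at chr16:77598940-77598961, chr16:77599672-77599693 and chr16:77646279-77646300, all on the plus strand, with the seed (bases 2 to 8) in capitals. The 3 seeds differ from one another.
mmu-miR-99a-5p: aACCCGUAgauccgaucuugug
mmu-let-7c-5p: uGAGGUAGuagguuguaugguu
mmu-miR-125b-5p: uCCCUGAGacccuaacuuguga

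The first 110 bases of Rn7sk (GENCODE M21, chr9:78175524-78175633 on GRCm38, minus strand) are shown because this end of the RNA binds Hexim proteins. Capitals mark the tetramer GATC (GAUC in the RNA), found 3 times in this stretch.
Rn7sk: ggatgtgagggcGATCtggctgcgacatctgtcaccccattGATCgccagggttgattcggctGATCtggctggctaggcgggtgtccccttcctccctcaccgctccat

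A 91-base stretch near the 3′ end of Malat1 (GENCODE M21, chr19:5795982-5796072 on GRCm38, minus strand) is shown because it is the element that protects an RNA with no poly(A) tail. Capitals mark its 2 U-rich motifs, TTTTTCTTTT and TTTTGCTTTT, and the A-rich tract with which they are known to pair in a triple helix.
Malat1: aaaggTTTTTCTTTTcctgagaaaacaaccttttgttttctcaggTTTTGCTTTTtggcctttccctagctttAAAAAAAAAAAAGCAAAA

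The libraries held 90790542 to 115729892 reads in genes, out of 256046023 to 334456428 reads in all, and 25566 to 26709 genes had reads. Rows naming no gene took 58.1% to 65.4% of all reads, mainly those aligned to several places (35.8% to 43.9%) and those over no annotated feature. The share overlapping no feature was 15.7%, 13.8%, 14.6% and 15.9% in WT replicates 1 to 4 and 19.2%, 18.4%, 20.7% and 20.8% in the Dp16 replicates. The groups did not overlap, with means of 15.0% ± 0.965 and 19.8% ± 1.16 (SD over 4 libraries each) and a difference of 4.80 percentage points. This row was chosen together with the RNAs for the same comparison, so the difference is a description without a test. Between genotypes, edgeR's quasi-likelihood test with Benjamini-Hochberg adjustment called 121 of the 19358 genes at an adjusted p below 0.05, 91 higher in Dp16 (0.47%) and 30 lower (0.155%). An unadjusted p below 0.05 was found for 24.6% of all genes tested. DESeq2 called 5.82% higher and 4.33% lower, 10.2% in all, and limma-voom 1.28% higher and 0.77% lower, 2.05% in all. Acinar genes of the gland were abundant in every library, and the summed level of 14 acinar markers was 265804 to 374716 CPM (counts scaled by TMM to a common library size) in WT and 234631 to 319615 in Dp16.

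The 6 RNAs together made up 1.13% ± 0.0511 of every read of a WT library and 1.34% ± 0.0425 of a Dp16 library (SD over 4 libraries each), and the groups did not overlap. Summed in CPM the groups did overlap, at 28585 to 36398 in WT and 33319 to 37322 in Dp16, so the separation depends on the scale. Levels of different genes were set side by side as CPM per kilobase of exon, where CPM are taken over gene reads only, after TMM scaling. On this scale Rn7sk stood at 34639 ± 3445, Malat1 at 2280 ± 246, Gm42418 at 2054 ± 1471, Neat1 at 76.4 ± 13.0, Mir99ahg at 2.15 ± 0.755 and Meg3 at 0.198 ± 0.0478 (SD over all 8 libraries). Malat1 and Gm42418, neighbours in this order, overlapped in their range over libraries, and no other neighbours did. Abundance therefore held for 4 of the 6. Mir99ahg and Meg3 ranked 3241 and 10650 among all genes by mean reads, against 12, 13, 20 and 33 for Malat1, Rn7sk, Gm42418 and Neat1, in counts not corrected for length.

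**Figure D1:**
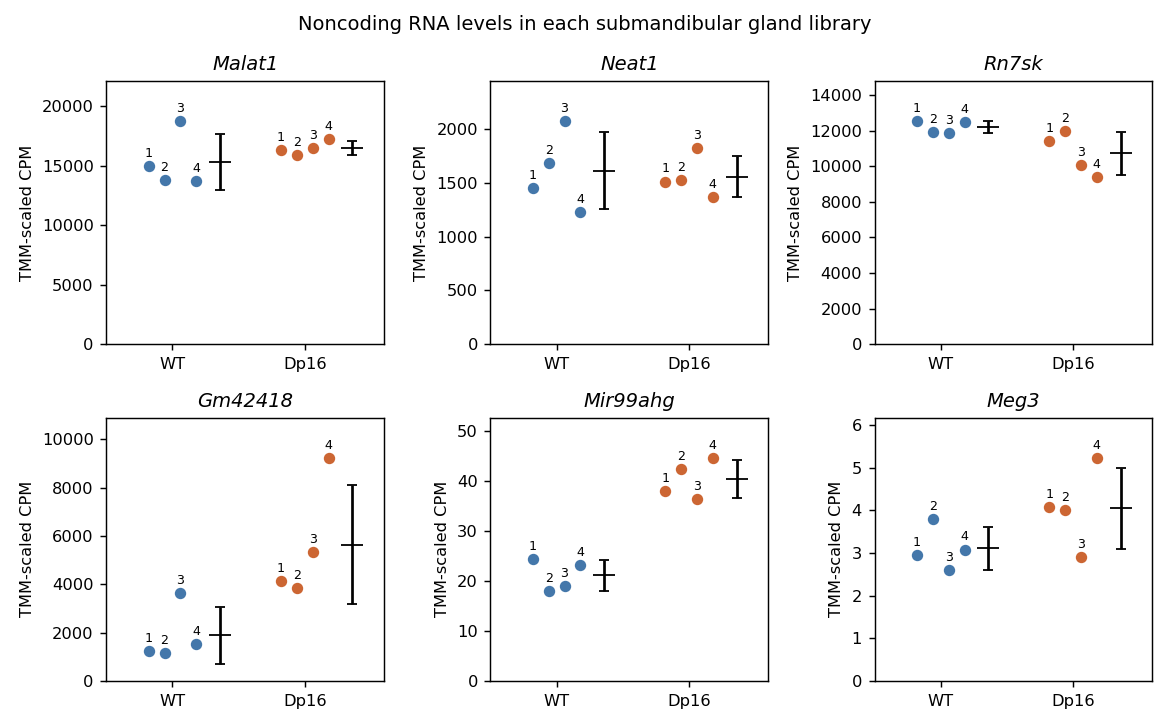
TMM-scaled CPM (vertical axes, linear from 0) of the 6 noncoding RNAs in the 4 WT and 4 Dp16 libraries. Points are libraries with their replicate number, and the dash and bar give the mean and SD. The groups are apart for Gm42418 and Mir99ahg and overlap for the other 4 RNAs.

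Against the genotype, 1 of the 6 RNAs was called by edgeR. Mir99ahg rose 1.91-fold in Dp16. Gm42418 was 2.99-fold higher in the mean but spread widely within groups and missed the threshold, with an adjusted p of 0.0909 by edgeR's quasi-likelihood test. The 95% confidence intervals of Malat1, Neat1, Rn7sk and Meg3 included no difference. Groups were apart for Gm42418 and Mir99ahg, both higher in Dp16, and among all genes tested they were apart in 14.1%, 7.11% with Dp16 higher and 6.96% with Dp16 lower.

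**Figure D2:**
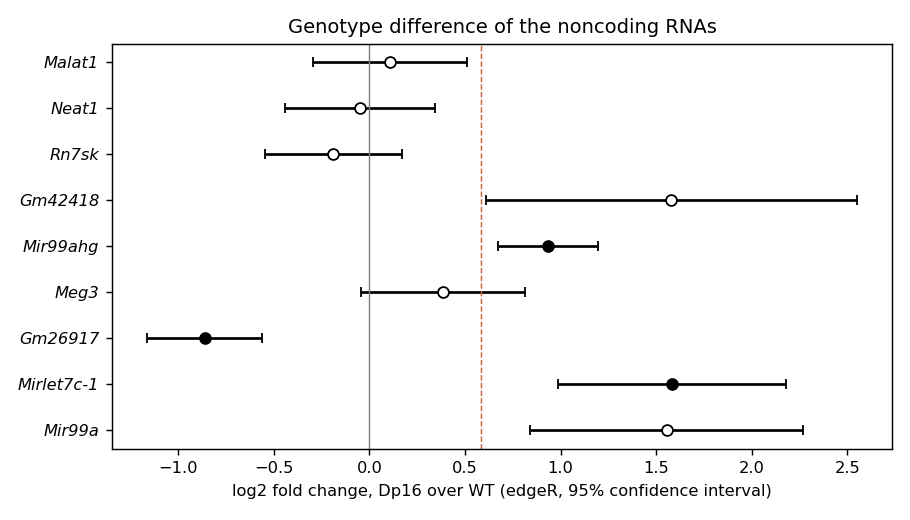
Log2 fold change of Dp16 over WT (horizontal axis) with its 95% confidence interval from edgeR, for the 6 RNAs and 3 rows described beside them. Filled points have an adjusted p below 0.05 (Mir99ahg, Gm26917 and Mirlet7c-1), the grey line marks no difference and the dashed line marks 1.5-fold, which is 3 gene copies over 2.

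Malat1 (ENSMUSG00000092341, chr19:5795690-5802672, minus strand, 6983 exonic bases) was counted in 1326024 to 1892023 reads per library. Its level was 15027, 13805, 18763 and 13709 CPM in WT replicates 1 to 4 and 16306, 15926, 16511 and 17301 CPM in Dp16 replicates 1 to 4. WT replicate 3 was the highest of all 8 libraries, the other WT libraries were the lowest, and the groups overlapped. The log2 fold change was 0.11 (SE 0.18, 95% interval -0.29 to 0.51), with an adjusted p of 0.734 by edgeR's quasi-likelihood test. As a share of all reads, Malat1 made up 0.518% to 0.580% in WT and 0.621% to 0.680% in Dp16. On that scale the groups were apart, unlike in CPM, with means of 0.555% ± 0.0265 and 0.643% ± 0.0262 (SD over 4 libraries each).

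A row annotated on the strand opposite to Malat1 and inside its span, Gm37376 (chr19:5801941-5802393), held 241 to 392 reads in WT libraries and 166 to 238 in Dp16 libraries. This row was singled out after its values were seen. Its groups did not overlap in reads, but in CPM they did (2.09 to 3.95 and 1.54 to 2.18), and the log2 fold change was -0.69 (SE 0.20, edgeR adjusted p = 0.103). 

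Neat1 (ENSMUSG00000092274, chr19:5824708-5845478, minus strand) is separated from Malat1 by 22035 bases and has 20771 exonic bases. Its level was 1457, 1690, 2076 and 1233 CPM in WT and 1514, 1529, 1828 and 1366 CPM in Dp16. The highest and the lowest libraries, replicates 3 and 4, were both WT, and the Dp16 values lay between them. The log2 fold change was -0.050 (SE 0.17, 95% interval -0.44 to 0.34), with an adjusted p of 0.881 by edgeR's quasi-likelihood test. Its sign turned under other scalings of the libraries, to 0.14 when total gene reads were used unscaled and to 0.073 when all reads were used, and to 0.083 without WT replicate 3. Neat1 gave 10.5 ± 1.44 reads per 100 Malat1 reads in WT and 9.46 ± 1.30 in Dp16 (SD over 4 libraries each).

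Of 22 nuclear speckle proteins, all were tested, and by edgeR 1 rose, 1 fell and 20 did not pass the test. Over all genes tested, 0.47% rose and 0.155% fell. The median log2 fold change was -0.068, beside 0.0081 over all genes tested. By edgeR 8 had an unadjusted p below 0.05 (24.6% over all genes), and in 8 the groups did not overlap (14.1% over all genes). DESeq2 called 1 higher and 3 lower, and limma-voom 1 higher and 2 lower. Son, a core protein of speckles encoded on the duplicated segment, rose from 305 ± 9.03 to 582 ± 9.99 CPM (SD over 4 libraries each), a log2 fold change of 0.93 (SE 0.078, edgeR adjusted p = 0.0111). Srsf7, a serine/arginine-rich splicing factor, fell from 46.4 ± 2.54 to 32.7 ± 1.49 CPM, a log2 change of -0.51 (SE 0.067, edgeR adjusted p = 0.0265). Srsf7 stayed called in 8 of 15 alternative edgeR fits and Son in 13. Srsf2, another factor of that family, was at -0.48 (edgeR adjusted p = 0.0544), and U2af1, the small subunit of the splicing factor that reads the 3′ splice site, was at -0.36 (edgeR adjusted p = 0.0781).

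None of 21 paraspeckle proteins tested passed the edgeR threshold; 3 had an unadjusted p below 0.05, a share under the 24.6% of all genes, and DESeq2 called 2 higher and 1 lower. Their median log2 fold change was 0.00. Zc3h6 (0.77), the paraspeckle protein Rbm14 (-0.42) and the RNA-binding protein Taf15 (0.16) were among those with the smallest p-values, with adjusted p-values of 0.0850, 0.0870 and 0.232 by edgeR. Of 12 genes tested next to Malat1 and Neat1 on chromosome 19, 6 were positive and none was called by edgeR, with a median of -0.0057. DESeq2 called 1 of them lower, and 5 had an unadjusted p below 0.05, among them Ltbp3 at 0.22 (edgeR adjusted p = 0.118).

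Rn7sk (ENSMUSG00000065037, chr9:78175303-78175633, minus strand, 331 bases) was counted in 907573 to 1441302 reads per library. The level was 12534, 11934, 11883 and 12505 CPM in WT and 11435, 11962, 10095 and 9377 CPM in Dp16. In CPM the 4 WT values lay close together, while Dp16 replicates 3 and 4 were the lowest of the 8 and Dp16 replicate 2 reached the WT range, so the groups overlapped. The mean was 12214 ± 353 CPM in WT and 10718 ± 1190 in Dp16 (SD over 4 libraries each), a log2 fold change of -0.19 (SE 0.16, 95% interval -0.55 to 0.17, edgeR adjusted p = 0.481). As a share of all reads the order differed, with 0.484%, 0.448%, 0.358% and 0.507% in WT and 0.449%, 0.466%, 0.416% and 0.342% in Dp16, so that WT replicate 3 was the second lowest of the 8. With total gene reads used unscaled, its log2 fold change was -0.024. Many near-identical copies of Rn7sk exist in the genome, and reads aligning to several of them are counted in no gene, so its absolute level is uncertain.

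Among 20 genes of the 7SK particle and P-TEFb, all were tested, 5 were positive and none was called by edgeR; 2 had an unadjusted p below 0.05 (24.6% over all genes), and DESeq2 called 1 lower. The median log2 fold change was -0.11. Ccnt1, a cyclin subunit of P-TEFb, was at 49.6, 51.4, 54.9 and 53.8 CPM in WT and 43.0, 40.9, 38.5 and 43.4 CPM in Dp16. These groups did not overlap, and the log2 fold change was -0.34 (SE 0.067, edgeR adjusted p = 0.0589). The next were Nelfa, a subunit of the pausing factor NELF, at -0.23 (edgeR adjusted p = 0.193), the phosphatase Ppm1g at -0.26 (edgeR adjusted p = 0.208) and Larp7, which binds the 3′ end of 7SK RNA, at -0.22 (edgeR adjusted p = 0.261). Ccnt2, the other cyclin of the list, was named after its values were seen. Its mean was 73.5 CPM in WT and 74.4 in Dp16 (log2 fold change 0.018, edgeR adjusted p = 0.891).

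Among other small structural RNAs, most made by RNA polymerase III, Rny1 and Rny3 spread widely over the WT libraries. Of 21 listed, 15 were tested, none had a positive log2 fold change and none was called by edgeR; 6 had an unadjusted p below 0.05 (24.6% over all genes), and DESeq2 called 4 lower. Rny3, a Y RNA, made up 0.0519%, 0.0481%, 0.0956% and 0.0182% of all reads in WT replicates 1 to 4 and 0.0182%, 0.0167%, 0.0267% and 0.0174% in the Dp16 replicates. WT replicate 3 was the highest for Rny3 and Rny1 and WT replicate 4 lay within or below the Dp16 range. The summed level of the 21 RNAs ran from 958 to 5040 CPM in WT and from 978 to 1346 CPM in Dp16. Rpph1, the RNA of RNase P, had the smallest p-value, with 6.29 to 7.41 CPM in WT and 3.49 to 5.71 CPM in Dp16 (log2 fold change -0.62, edgeR adjusted p = 0.0745).

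Gm42418 (ENSMUSG00000098178, chr17:39846958-39848788, plus strand, 1831 bases) was the most variable of the 6 RNAs, with an 8.13-fold range over the libraries. Its level was 1227, 1135, 3654 and 1525 CPM in WT and 4149, 3856, 5314 and 9227 CPM in Dp16. WT replicate 3 stood above the other WT libraries and just below the lowest Dp16 library, and Dp16 replicate 4 was the highest of all, so the groups did not overlap. The log2 fold change was 1.58 (SE 0.43, 95% interval 0.61 to 2.55, or 1.53-fold to 5.86-fold), with an adjusted p of 0.0909 by edgeR's quasi-likelihood test. DESeq2 gave an adjusted p of 0.0462 and limma-voom 0.0609. Leaving out WT replicate 3 gave a log2 fold change of 2.11, and leaving out Dp16 replicate 4 gave 1.22.

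Almost the whole of Gm42418, 1822 of its 1831 bases, lies under exons of CT010467.1, a ribosomal RNA gene on the opposite strand. RefSeq gives Gm42418 as another name of the pseudogene Rn18s-rs5 (chr17:39846354-39848202), with which it shares 1245 bases. Reads of the ribosomal RNA repeats that align to more than 1 place are not counted here, so the row measures the part that aligned uniquely. Another gene inside the unit, AY036118, lies within the span of Gm42418 on the same strand as CT010467.1, and had 0 reads in every library. Reads there would overlap CT010467.1 as well and be counted in neither row, so this 0 gives no level. Whether strand was used in counting is not given in the sources used here. Without strand, reads over both Gm42418 and CT010467.1 would be ambiguous and counted in neither row. Gm42418 had 108991 or more reads in each library, and CT010467.1 had reads too. CT010467.1 and AY036118 were brought in after their values were seen.

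The row just upstream of Gm42418 fell. Gm26917 (ENSMUSG00000097971, chr17:39843013-39846341, plus strand), which ends 616 bases before Gm42418 starts, was at 2238, 2561, 2184 and 2266 CPM in WT and 1466, 1366, 1153 and 1102 CPM in Dp16. All 4 Dp16 libraries were below all 4 WT libraries. The mean fell from 2312 ± 169 to 1272 ± 172 CPM (SD over 4 libraries each), a log2 change of -0.86 (SE 0.13, 95% interval -1.16 to -0.56, edgeR adjusted p = 0.0378). The call was kept in 7 of 15 alternative edgeR fits, and the adjusted p over these fits ran from 0.0253 to 0.118. It was lost without WT replicate 1 (0.0535), 2 (0.118), 3 (0.0912) or 4 (0.0880) and without Dp16 replicate 1 (0.1000), 3 (0.0748) or 4 (0.0598), and also when all reads were used as the library size (0.0573). Gm42418 gave 0.443 to 1.67 reads per Gm26917 read in WT and 2.82 to 8.37 in Dp16. In WT replicate 3, where Gm42418 was at 3654 CPM, Gm26917 was at 2184 CPM, the lowest of WT and close to replicates 1 and 4. As a share of all reads it stood further apart there, at 0.0658% against 0.0864%, 0.0961% and 0.0918% in the other WT libraries, with a highest Dp16 value of 0.0576%.

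Of 14 ribosomal RNA genes and rows that overlap ribosomal RNA, 11 were in the files and 7 were tested; 5 were positive, Gm26917 fell and none rose by edgeR. Lars2 and Gm15564, named for their small p-values, were high in the libraries where Gm42418 was high. Lars2, a mitochondrial leucyl-tRNA synthetase gene, was at 128, 117, 786 and 171 CPM in WT and 665, 638, 1121 and 2947 CPM in Dp16, with a log2 fold change of 2.16 (SE 0.74, edgeR adjusted p = 0.133). Gm15564 was at 7.10, 5.17, 46.8 and 8.21 CPM in WT and 33.6, 30.8, 59.3 and 155 CPM in Dp16 (2.05, SE 0.80, edgeR adjusted p = 0.163). In both rows WT replicate 3 was higher than 2 of the 4 Dp16 libraries. CT010467.1 was at 238, 136, 367 and 219 CPM in WT and 292, 268, 242 and 1019 CPM in Dp16 (0.92, SE 0.49, edgeR adjusted p = 0.272). The mitochondrial 16S RNA, mt-Rnr2, held 18031 to 21392 CPM in WT and 17417 to 21293 CPM in Dp16, and its groups overlapped.

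**Figure D3:**
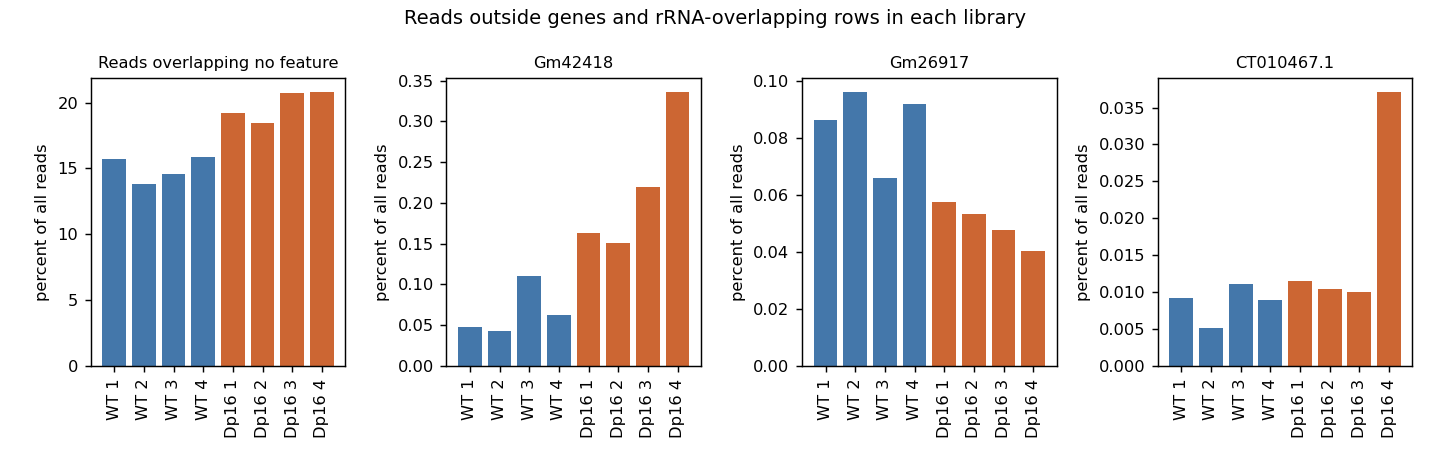
Percent of all reads (vertical axes, from 0, a scale of its own in each panel) in reads overlapping no feature, Gm42418, Gm26917 and CT010467.1, 1 bar per library, WT in blue and Dp16 in orange. No-feature reads and Gm42418 are higher in all 4 Dp16 libraries, Gm26917 is lower in all 4, and CT010467.1 stands out in Dp16 replicate 4.

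The share of reads overlapping no feature, higher in every Dp16 library as given above, separates the libraries the same way as Gm42418 and Gm26917, and its part in either difference was not tested. Within WT, replicate 3 had the highest Gm42418 share of all reads (0.110%) and a no-feature share of 14.6%, the second lowest of WT. Counted per 100 gene reads, however, its no-feature value was the highest of WT, at 42.1 against 37.5, 36.2 and 39.3 in replicates 1, 2 and 4. Within Dp16 the order of the libraries by share of all reads was the same for both, from replicate 2 (0.150% Gm42418, 18.4% no feature) through replicates 1 and 3 to replicate 4 (0.336% and 20.8%).

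Mir99ahg (ENSMUSG00000090386, chr16:77236317-77773427, plus strand) spans 537.1 kb of the duplicated segment and has 14303 exonic bases. It was counted in 2433, 1726, 1911 and 2667 reads in WT and 4162, 4902, 3923 and 4325 reads in Dp16. Its level was 24.5, 17.97, 18.95 and 23.1 CPM in WT and 38.0, 42.5, 36.4 and 44.7 CPM in Dp16. Every Dp16 library lay above every WT library, and the mean rose from 21.1 ± 3.17 to 40.4 ± 3.84 CPM (SD over 4 libraries each). The log2 fold change was 0.93 (SE 0.12, edgeR adjusted p = 0.0265), a 1.91-fold rise whose 95% interval, 1.59-fold to 2.29-fold, lies above a fold of 1.5. In bulk tissue, more cells of a type that expresses the RNA and more RNA per cell cannot be told apart.

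The Mir99ahg call was kept in 10 of 15 alternative edgeR fits and by DESeq2 (adjusted p = 2.03e-08) and limma-voom (0.0169). It was lost without WT replicate 2 (edgeR adjusted p = 0.0995), 3 (0.0836) or 4 (0.0613) and without Dp16 replicate 1 (0.0867) or 4 (0.0502), with log2 fold changes between 0.86 and 1.00 over all 8 libraries left out in turn.

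The annotation places 18 further rows inside the span of Mir99ahg: 12 single-model transcripts on its strand (biotype TEC, models that await experimental evidence), 3 rows on the other strand and 3 microRNA hairpins. These rows were examined after the rise of Mir99ahg was seen. All 12 same-strand transcripts lie outside its exons, all 12 were tested and all 12 were positive. Their median was 0.89 on the log2 scale (1.86-fold, range 0.64 to 1.72). Together they held 13860 reads in WT and 27592 in Dp16. In 11 of 12 the groups did not overlap, with Dp16 higher, as was so for 7.11% of all genes tested. The 12 rows share libraries and lie in introns of the same gene, so they need not be independent of it or of one another. By edgeR 5 passed the threshold, where 0.47% of all genes tested were called higher. Gm36963 rose by 1.13, Gm37606 by 1.06, Gm37311 by 1.04, Gm21816 by 0.92 and Gm37694 by 0.82, with adjusted p-values of 0.0285, 0.0450, 0.0267, 0.0470 and 0.0412. None of the 12 was called without WT replicate 2, 3 or 4 or without Dp16 replicate 1 or 4. DESeq2 called 11 (5.82% of all genes higher) and limma-voom 10 (1.28%).

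Other sets give the scale for these rows. The 1301 TEC rows tested outside the segment centred on a log2 fold change of 0.23, and 960 were positive. Within the segment, 84 of the 88 protein-coding genes tested were positive, with a median of 0.59 and 28 called higher. Of all 127 genes tested there, the rows inside Mir99ahg included, 121 were positive, with a median of 0.66 and 37 called. The 3 other TEC rows tested in the segment had a median of 0.43. On the strand opposite to Mir99ahg, Gm31258 had 1 read in WT and 49 in Dp16 and was not tested, 9430053O09Rik had 26 and 133 (log2 fold change 2.25, edgeR adjusted p = 0.0714), and Gm11146 had 2 and 2.

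**Figure D4:**
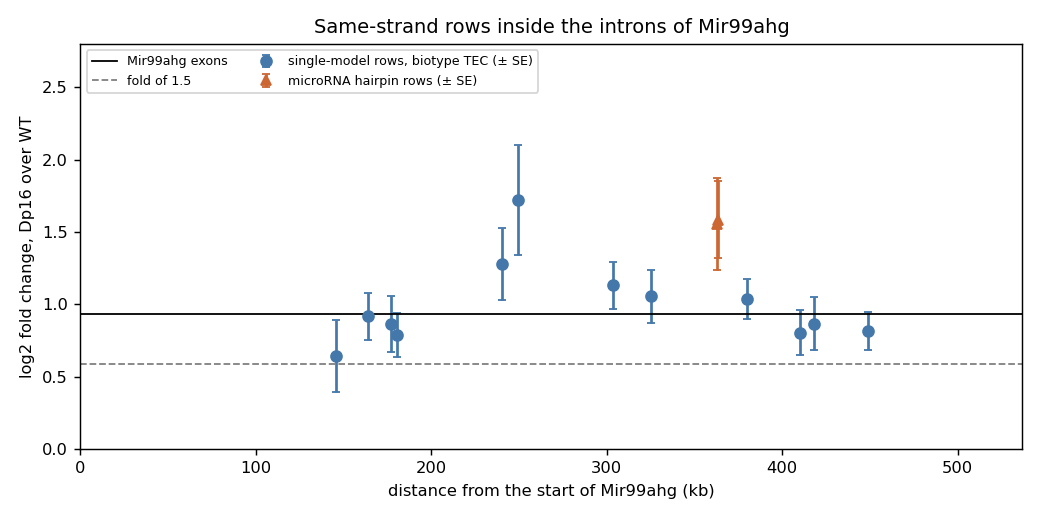
Log2 fold change of Dp16 over WT with its SE (vertical axis) of the same-strand rows tested inside Mir99ahg, against distance from the start of Mir99ahg in kb. Blue circles are the 12 TEC rows, orange triangles the hairpins Mir99a and Mirlet7c-1, the black line Mir99ahg itself at 0.93 and the dashed line a fold of 1.5. All 14 points lie above 0, the TEC rows from 0.64 to 1.72 along the whole span.

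The hairpins of 2 of the 3 microRNAs printed above were tested. Mirlet7c-1 (chr16:77599657-77599750), which yields let-7c, had 15, 13, 21 and 27 reads in WT and 50, 75, 59 and 53 in Dp16. All Dp16 libraries exceeded all WT libraries, and the log2 fold change was 1.58 (SE 0.27, 95% interval 0.99 to 2.18, edgeR adjusted p = 0.0428). That call was lost when any 1 WT library or Dp16 replicate 1, 3 or 4 was left out, with adjusted p-values up to 0.130. Mir99a (chr16:77598936-77599000) had 9, 6, 6 and 10 reads in WT and 20, 23, 25 and 27 in Dp16, again with no overlap (1.56, SE 0.32, edgeR adjusted p = 0.0609, DESeq2 adjusted p = 0.0118). Mir125b-2 had 0 reads in WT and 1, 1, 2 and 0 in Dp16 and was not tested. The library method is not one for small RNAs, so these reads come from longer fragments that cover the hairpins, and levels of the mature microRNAs were not analysed here.

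Among 11 genes around Mir99ahg on the segment, 7 were tested, 6 were positive, 1 rose and none fell by edgeR, with a median log2 fold change of 0.42. Usp25, a ubiquitin-specific protease gene just upstream, rose from 56.4 ± 3.47 to 91.2 ± 11.2 CPM (SD over 4 libraries each; 0.69, SE 0.10, edgeR adjusted p = 0.0284) and was called in 9 of 15 alternative edgeR fits. Nrip1, a nuclear receptor corepressor, was at 0.42 (edgeR adjusted p = 0.0544) and the adaptor gene Samsn1 at 1.56 (edgeR adjusted p = 0.0683), both with groups that did not overlap. Btg3, an antiproliferative gene, was the 1 negative member, at -0.92 (edgeR adjusted p = 0.130, DESeq2 adjusted p = 0.0350). Its level was 1.09 to 1.88 CPM in WT and 0.455 to 1.29 CPM in Dp16.

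Meg3 (ENSMUSG00000021268, chr12:109541001-109571726, plus strand, 18089 exonic bases) was scarce, at 293, 364, 262 and 355 reads in WT and 445, 461, 313 and 506 reads in Dp16. Its level was 2.95, 3.79, 2.60 and 3.08 CPM in WT and 4.07, 3.99, 2.91 and 5.23 CPM in Dp16. Dp16 replicate 3 lay below 3 WT libraries, so the groups overlapped. The mean was 3.10 ± 0.500 CPM in WT and 4.05 ± 0.949 in Dp16 (SD over 4 libraries each), a log2 fold change of 0.38 (SE 0.19, 95% interval -0.046 to 0.81, edgeR adjusted p = 0.246).

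Genes of the Dlk1-Dio3 locus around Meg3 ran from about the level of Meg3 down to a few reads. Of 8 listed genes, 4 were tested, 2 were positive, none was called by edgeR, DESeq2 or limma-voom, and none had an unadjusted p below 0.05. Rian, another maternally expressed transcript of the locus, was at 2.81, 3.90, 2.19 and 3.70 CPM in WT and 3.29, 3.61, 1.91 and 4.67 CPM in Dp16 (log2 fold change 0.10, edgeR adjusted p = 0.851). Mirg, the host of a microRNA cluster there, had 177 reads in WT and 120 in Dp16 (-0.64, edgeR adjusted p = 0.296). Paternally expressed Dlk1 had 9 and 19 reads and Rtl1 had 1 and 9, too few to test. In Rian, as in Meg3, replicate 4 was the highest and replicate 3 the lowest of the Dp16 libraries.

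Of 53 other well-known long noncoding RNAs, 48 were in the files and 43 were tested; 25 were positive, none was called by edgeR, and their median log2 fold change was 0.035. Here 13 of the 43 had an unadjusted p below 0.05, a share near the 24.6% of all genes, and DESeq2 called 5 higher and 3 lower. Snhg15, a small nucleolar RNA host, was at -0.68 (edgeR adjusted p = 0.0577), the imprinted antisense RNA Kcnq1ot1 at -0.38 (edgeR adjusted p = 0.0589), Lncpint at 0.46 (edgeR adjusted p = 0.0856) and the imprinted host Snhg14 at 0.56 (edgeR adjusted p = 0.0986). In all 4, named for their small p-values, the groups did not overlap. Of the 43 tested, 7 had groups that did not overlap, a share near the 14.1% of all genes tested.

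By annotated class, and outside the duplicated segment, the classes to which these RNAs belong were shifted by small amounts; the classes were compared after the members' values were seen. The median log2 fold change was 0.24 over 664 lincRNAs, of which 463 were positive, 0.25 over 215 sense-intronic RNAs, 0.19 over 571 antisense RNAs and 0.17 over 314 processed transcripts. It was -0.026 over 14354 protein-coding genes, -0.14 over 58 miscellaneous RNAs, the class of Rn7sk, and -0.40 over 146 small nucleolar RNAs, of which 27 were positive. In edgeR 2 of the 664 lincRNAs rose and 2 fell, and 0 of the sense-intronic and antisense RNAs were called. The median of small nucleolar RNAs was -0.23 without WT replicate 3 and -0.51 without WT replicate 4. With total gene reads used unscaled, the median of all genes was 0.18, and the medians of protein-coding genes (0.14) and miscellaneous RNAs (0.046) turned positive, as did those of the nuclear speckle proteins (0.098) and the 7SK particle genes (0.062).

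**Figure D5:**
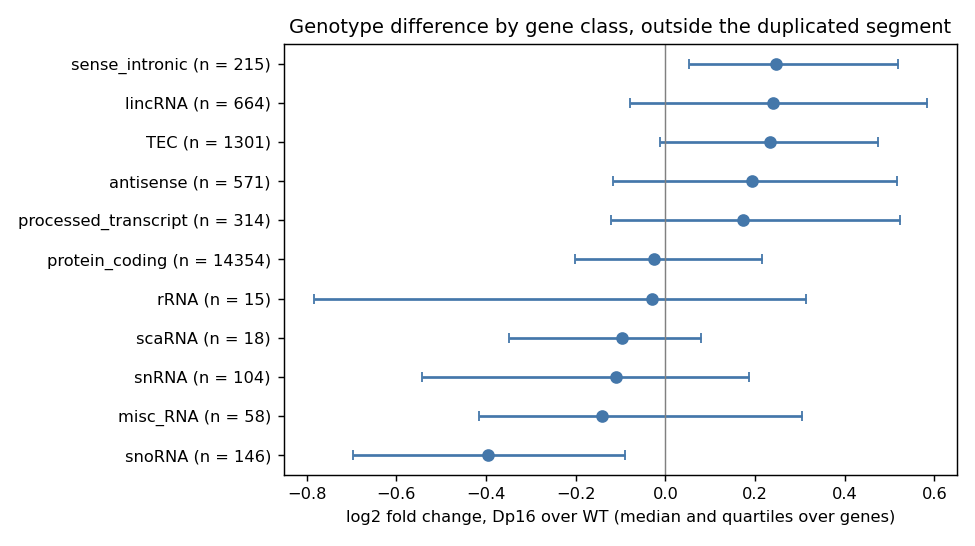
Median log2 fold change of Dp16 over WT with the quartiles over genes (horizontal axis), for annotated gene classes outside the duplicated segment, with the number of genes tested in each. Sense-intronic, lincRNA and TEC rows have the highest medians (0.25, 0.24 and 0.23) and small nucleolar RNAs the lowest (-0.40).

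Marker lists of cell types were read beside these RNAs, and 1 marker in all, Klk1, was called by edgeR. Lymphocyte markers were positive in 12 of 12 (median 2.02), and they summed to a level of 4.64 to 7.93 CPM in WT and 8.91 to 38.2 CPM in Dp16. None of them was called by edgeR, and all 12 had an unadjusted p below 0.05 (24.6% over all genes). DESeq2 called all 12 higher (5.82% over all genes) and limma-voom 2 (1.28%). Of 8 endothelial markers 7 were positive (median 0.37, summed level 65.9 to 79.2 CPM in WT and 88.7 to 96.5 in Dp16), and of 10 fibroblast markers 2 were (median -0.48, 694 to 978 and 551 to 898). Of 13 acinar markers tested 2 were positive (median -0.24), and of 10 granular duct markers 1 was (median -0.46). Klk1, a duct kallikrein, fell by 0.70 on the log2 scale (edgeR adjusted p = 0.0358) and was called in 7 of 15 alternative edgeR fits, with adjusted p-values up to 0.114. Macrophage markers (7 of 8 positive, median 0.15, but -0.18 without Dp16 replicate 3 and -0.024 with limma-voom), nerve and Schwann cell markers (6 of 8, 0.048), adipocyte markers (2 of 7, -1.52) and the 3 skeletal muscle markers tested (1 positive, -0.31) had no member called by edgeR. None of these markers was at 0 reads in the whole series, and their part in the differences of Mir99ahg and Gm42418 was not tested.

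The genes most like each RNA over the 8 libraries were found by Pearson's r of log2 CPM among 7336 genes with a mean of at least 10 CPM. The points share libraries, depth and genotype, so these values are a description over 8 points, without a test. Gm42418 was most like Lars2 (0.995), Gm15564 (0.989) and Gm24187 (0.975). Mir99ahg was most like Mum1 (0.984), 2610008E11Rik (0.977) and Gabpa (0.977), the last of which lies on the duplicated segment and rose by 0.62 on the log2 scale (edgeR adjusted p = 0.0265). Meg3 was most like Il10rb (0.953) and Atp5j (0.942), both on chromosome 16, and Tardbp (0.917).

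Malat1 was most like Mir6236 (0.960), Usp32 (0.934) and Acox3 (0.924), whose log2 fold changes were 0.60, 0.029 and 0.15. Neat1 was most like Cd14 (0.971), Gtpbp2 (0.948) and Hist2h4 (0.944), with differences of 0.030, 0.017 and -0.10. Rn7sk was most like Pitx1 (0.968) and Commd6 (0.964), with differences of -0.40 and -0.17. None of these 8 genes was called by edgeR, with adjusted p-values from 0.110 to 0.922.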

How the data were processed

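The authors deposited 1 table of whole-number read counts per Ensembl gene for each of 8 libraries; FastQC, STAR, HTSeq and DESeq2, with the build GRCm38 and no versions, are listed in the submitters' processing notes. Per the labels, RNA was column-purified and libraries were stranded and depleted of ribosomal RNA. Which annotation was counted, and whether strand was used, is not given in the sources used here. Names and coordinates came from GENCODE M21 (54809 of 54838 genes matched). The 5 rows naming no gene stayed out of library sizes and tests and held 58.1% to 65.4% of reads.

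Counts were fitted in R 4.3.3 with edgeR 4.0.16: default filter, TMM scaling, the quasi-likelihood F-test on genotype with no covariate, two-sided, Benjamini-Hochberg over 19358 genes, threshold 0.05. DESeq2 1.42.0 and limma 3.58.1 (voom with quality weights), other scalings and filters, a replicate block and leaving out each library were alternatives. Log2 CPM for likeness used a prior count of 2. On simulated counts for Dp16 against WT (19006 genes, 200 changed), edgeR recovered 24.6% of 1.5-fold, 82.4% of 2-fold and 100% of 4-fold changes. Of its 155 calls there, 13 were false. False calls were 58 of 220 with DESeq2, run on 19358 genes, and 12 of 154 with limma-voom, so DESeq2 calls are the least strict of the 3. The genes named are the 6 RNAs, the 3 most like each, and of each list those called and up to 4 with the smallest p; the text names those chosen after their values were seen. A few genes that meet this rule are not reported here. The members and lists were chosen with earlier results of these data known.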

Additional observations from a re-analysis of the deposited data

Results flagged for a closer look

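Of 24 groups of 4 libraries examined for a value far from the other 3, 2 stood out by Dixon's ratio of gap to range at its 95% level, and chance alone marks about 1 group in 20. Gm42418 in WT replicate 3 was at 3654 CPM, where the other WT libraries were at 1135 to 1525 CPM (ratio 0.845). CT010467.1 in Dp16 replicate 4 was at 1019 CPM, where the other Dp16 libraries were at 242 to 292 CPM (ratio 0.936). CT010467.1 was brought in after its values were seen, so the rate of 1 in 20 need not hold for it. Both rows lie in the same ribosomal RNA unit on opposite strands, and the libraries are different ones.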

How the results depend on the processing

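The 121 calls became 1991 with DESeq2, 396 with limma-voom, 328 with total gene reads unscaled, 223 with no filter and 776 with the replicate block, and ran from 0 to 446 with each library left out in turn. The count was 63, 0, 4 and 11 without WT replicates 1 to 4 and 0, 446, 56 and 14 without Dp16 replicates 1 to 4. No gene was called without WT replicate 2 (3376 at an unadjusted p below 0.05) or Dp16 replicate 1 (3583). Calls higher in Dp16 made up 75.2% in edgeR, 57.4% with DESeq2, 62.4% with limma-voom, 93.6% with total gene reads, 88.1% with all reads and 46.4% with the block. Same-numbered libraries correlated in their deviations at 0.191, 0.129, 0.0777 and 0.105, and libraries of different number at -0.225 to 0.141. As 1 pair was under 0.1 and the labels name no shared litter or batch, no pairing was assumed, and the library titled WT 4 is named WT-5. WT replicates 3 and 4 correlated better with another number (0.0874 and 0.131).

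Neat1 turned to 0.14 with total gene reads, 0.073 with all reads and 0.083 without WT replicate 3 (left-out range -0.16 to 0.083), never called. Gm42418 passed the threshold with DESeq2 (1.57), all reads (1.73) and the replicate block (1.67), and ran from 1.22 to 2.11 with a library left out. Mir99ahg ran from 0.86 to 1.00 with a library left out, and no other alternative ended its call. The log2 ratio of Malat1 shares was 0.21 of all reads and 0.29 of gene reads. The cause of these shifts was not tested. Malat1, Rn7sk and Meg3 kept their sign and stayed uncalled under all 17 alternatives. The no-feature difference kept its direction under all 10. Where a library was left out, groups that do not overlap make this certain. Depth limits the hairpin rows, which held 75 reads at most in a library.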
